A study of Mus musculus with 23 samples.

Results

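C3, C4b, Cfb, C1ra, Serping1, C4bp, Saa3 and Lcn2 are 8 genes of the complement system and the acute-phase response, taken from the 35523 named mouse genes of a co-culture study of the pancreas. The reads of all transcripts of each gene were summed in each of the 23 libraries, and all 8 genes were found. The genes were chosen by name, with expression values of these libraries in view, and the contrast that led to them is not recorded. The adjusted p-values below, which come from fits over all genes, therefore describe these libraries and are no independent evidence about the 8 genes.

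The study sorted pancreatic stellate cells (PSCs), the fibroblast-like cells that form the stroma of pancreatic tumours, from mouse pancreatic tumour organoids after both had grown together in Matrigel for 3.5 days in medium that the labels call reduced or control. The PSCs were Egfr knockout (KO) clones or Egfr wild-type (WT) cells labelled Rosa. Parent line PSC4 had the KO clones A3 and B4, parent line PSC5 had the KO clones C5 and D4, and each parent had its own Rosa line, so there were 6 PSC lines. Organoid lines T12-LOH and T69A were grown with PSC4 lines, and organoid line T6-LOH with PSC4 and PSC5 lines, which gave 4 kinds of co-culture. The PSC fraction had 8 KO libraries and 4 WT libraries, and the organoid fraction had 7 libraries grown with KO PSCs and 4 grown with WT PSCs. Libraries are named here by the number that leads their title. The organoid library of T69A grown with A3 cells is not analysed here. Libraries of the same KO clone are not separate clones, the labels do not say that libraries are separate cultures, and p-values therefore measure the spread between these libraries. Both KO libraries of a co-culture were set against the same Rosa library. Every library came from a co-culture, so a gene's level in cells grown alone is not given by these data.

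Complement is a chain of blood and tissue proteins that tag and lyse targets. The classical pathway starts when C1q recognises a target. The protease C1r then activates the protease C1s, which cuts C4 and C2. All pathways meet at C3, whose cleavage is amplified by factor B, the protein of Cfb. Serping1 encodes the C1 inhibitor, which blocks C1r and C1s, and C4bp encodes the C4b-binding protein, a regulator made mainly in the liver. Serum amyloid A3 (Saa3) and lipocalin 2 (Lcn2, which binds bacterial iron carriers) are secreted in acute inflammation and are induced outside the liver as well. Fibroblasts with an inflammatory state in mouse pancreatic tumours are known to express several of these genes.

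Estimated counts summed to between 21823084 and 34828131 per PSC library, and to between 23814409 and 34643087 per organoid library. Levels are given as CPM, the gene's counts scaled to a fixed total by TMM-scaled library sizes, and as TPM, the same kind of share, which corrects for transcript length, where genes are compared with each other. A count of 3, the lowest level treated as detected, equals 0.0861 to 0.137 CPM. Egfr was lower in 8 of 8 KO PSC libraries than in the Rosa library of the same co-culture. Egfr had 57.3 to 345 CPM in KO PSCs, against 278 to 419 CPM in WT PSCs, and library 28, clone D4, kept 82.2% of the Egfr level of its Rosa library. The labels do not say which part of Egfr was deleted, so a level that remains does not check the label. Epcam, which marks epithelium, had 0.365 to 3.43 CPM in PSC libraries and 407 to 1132.7 CPM in organoid libraries. Col1a1, which marks fibroblasts, had 3081.4 to 8942.7 CPM in PSC libraries and 0.353 to 11.7 CPM in organoid libraries. The leukocyte marker Ptprc and the macrophage marker Adgre1 were at 0 in all 12 PSC libraries, and the 6 hepatocyte markers summed to at most 0.694 CPM there. The 10 immune markers summed to 6.43 to 10.8 CPM in PSC libraries and 81.2 to 255 CPM in organoid libraries, where Ptprc had 0.0854 to 1.36 CPM, and the 6 endothelial markers to at most 6.94 CPM in any library.

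Most of these genes were carried by the stellate cells. In the comparison of the PSC fraction with the organoid fraction, 6 of the 8 genes were higher in PSCs (C3, C4b, C1ra, Serping1, Saa3 and Lcn2) and 1 was lower (C4bp), with edgeR's quasi-likelihood test and an adjusted p under 0.05. The filter on low counts let Serping1 in through PSC libraries and C4bp through organoid libraries, so their direction was fixed in advance. Of all 16209 genes tested, 40.4% were higher and 40.2% were lower, so most genes differ between these fractions. In bulk samples, fewer cells of a type and less RNA per cell cannot be told apart. Per transcript length, Saa3 was the most abundant of the 8 genes in PSCs, at 19442.9 ± 16182.6 TPM (SD, n = 12), and ranked between 1 and 31 among all 35523 genes by TPM in single libraries. It made up 0.26% to 4.66% of all TPM in a PSC library.

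The classical-pathway protease gene C1ra had 224 CPM at the lowest, 365 at the median and 486 at the highest in the 12 PSC libraries. In the 11 organoid libraries it had 1.03, 2.4 and 3.47 CPM. The groups did not overlap, and C1ra varied least among the PSC libraries. The log2 difference was 7.34 (SE 0.17, edgeR adjusted p = 4.09e-16). C4b, the next component of the classical pathway, had 14.8, 149 and 391 CPM (lowest, median, highest) in PSCs and 0.214, 0.724 and 1.52 CPM in organoids, a log2 difference of 7.56 (SE 0.46, edgeR adjusted p = 1.22e-10). The groups were again apart, although PSC library 23 at 14.8 CPM was far below the others. Reads of near-identical stretches may have been split between copies of a gene. C4a, a near copy of C4b, is not analysed here, so a split with C4b cannot be seen. The near copy C1rb was low beside C1ra, at 2.48 TPM against 211 TPM in KO PSCs on average.

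C3, the point where the pathways meet, had 952, 1919.0 and 4307.1 CPM (lowest, median, highest) in PSCs and 1.41, 10.9 and 67.2 CPM in organoids. The log2 difference was 7.36 (SE 0.26, edgeR adjusted p = 7.99e-14). C3 reached a mean of 766 ± 380 TPM in PSCs, close to Lcn2 at 795 ± 565 TPM and above C1ra at 217 ± 51.3 TPM (SD, n = 12 each). Its transcript C3-201 held 94.1% of the gene's TPM in KO PSCs and 94.0% in WT PSCs. Cfb, the protease of the alternative pathway, was the member without a fraction difference past the threshold: 3.38, 53.9 and 195 CPM in PSCs and 58.7, 147 and 314 CPM in organoids (lowest, median, highest), with overlapping ranges. The log2 difference was -0.88 (SE 0.48, edgeR adjusted p = 0.102). Paired by culture, over the 11 cultures with both fractions, Cfb was lower in PSCs (log2 -1.63, SE 0.64, edgeR adjusted p = 0.0345), a fit chosen after seeing the data. A predicted gene, Gm20547, overlaps Cfb, so reads shared between them cannot be assigned with certainty.

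Of the regulators, Serping1 was a PSC gene and C4bp was not. Serping1 had 1.46, 70 and 169 CPM (lowest, median, highest) in PSCs, against 0, 0.0344 and 0.181 CPM in organoids, where no library had more than 4 counts. Its fitted log2 difference of 11.16 (SE 1.26, edgeR adjusted p = 1e-06) depends on the prior count, since organoid levels lay at or near the floor of 3 counts. C4bp had 0, 0 and 0.182 CPM in PSCs, with counts in only 3 of 12 PSC libraries, and 0.333, 0.742 and 30.2 CPM in organoids. Its fitted difference was -7.26 (SE 0.44, edgeR adjusted p = 4.67e-08), which depends on the prior count for the same reason.

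The secreted acute-phase proteins showed a wide spread within the PSC fraction. Saa3 had 604, 3239.2 and 11489.2 CPM (lowest, median, highest) in PSCs and 0, 0.448 and 11.5 CPM in organoids, a log2 difference of 11.94 (SE 0.43, edgeR adjusted p = 9.28e-14). Lcn2 had 61.3, 319 and 817 CPM in PSCs and 0.427, 3 and 15 CPM in organoids, a log2 difference of 6.18 (SE 0.34, edgeR adjusted p = 3.26e-11). Neither gene overlapped between the fractions. All 7 calls between the fractions held when each of the 23 libraries was left out in turn, though the direction of Serping1 and C4bp was fixed in advance. Cfb was called lower in PSCs as well without library 24 (log2 -1.07, edgeR adjusted p = 0.0433) or 27 (log2 -1.10, edgeR adjusted p = 0.0303).

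**Figure D1:**
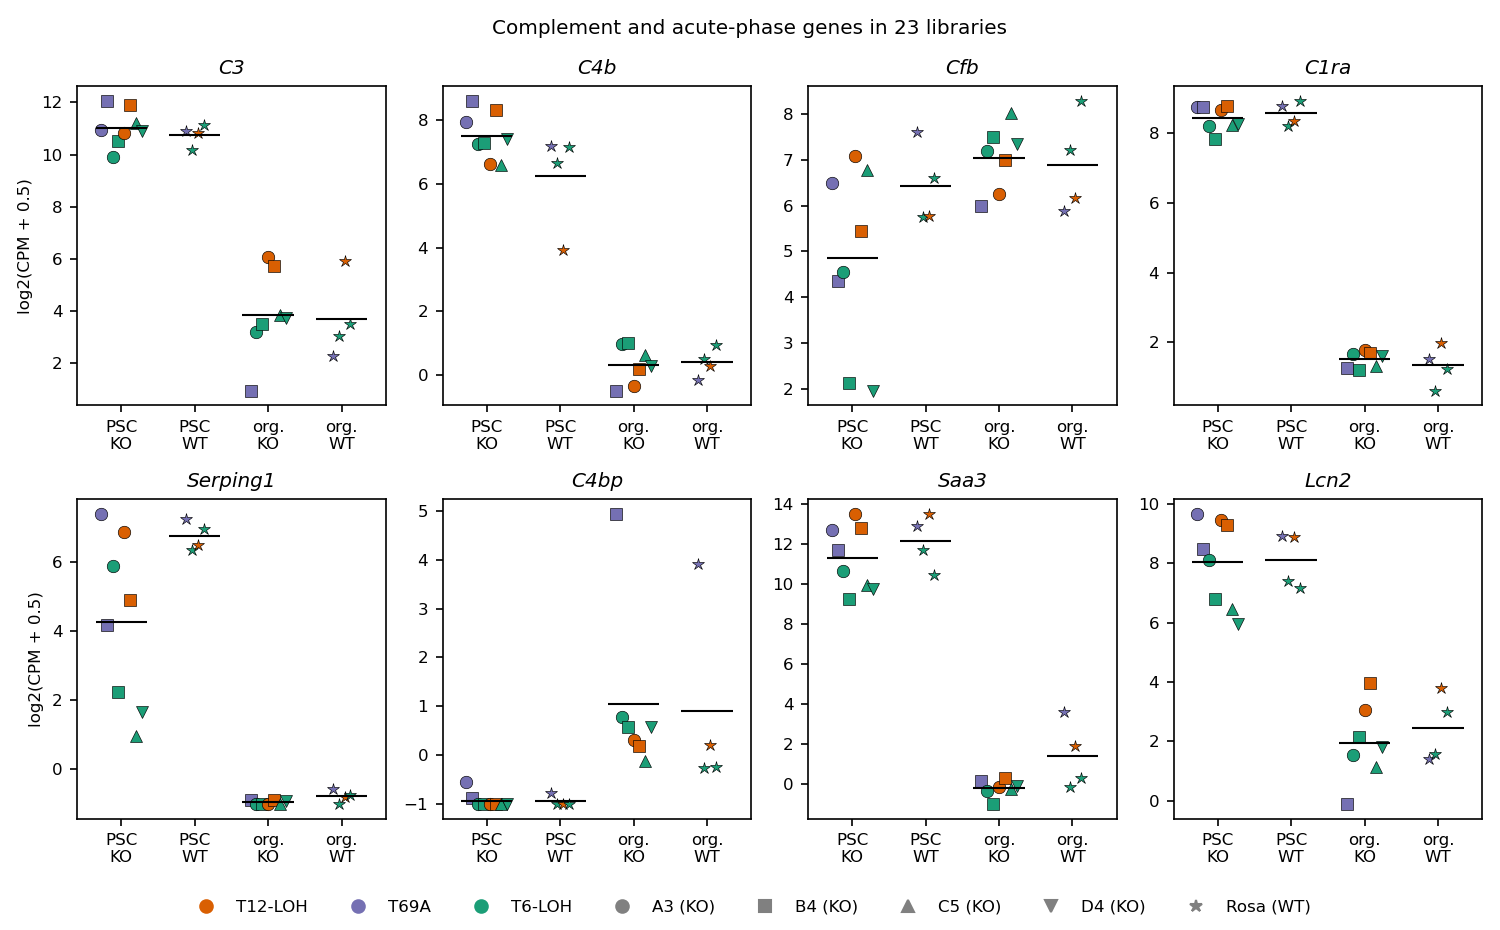
Level of each of the 8 genes in each library, on a log2(CPM + 0.5) axis, for KO PSCs, WT PSCs, organoids grown with KO PSCs and organoids grown with WT PSCs; colours give the organoid line, shapes the PSC line and bars the group mean. C3, C4b, C1ra, Serping1, Saa3 and Lcn2 lie higher in PSCs, Cfb overlaps between the fractions, and C4bp is highest in the T69A organoids, at 30.2 and 14.5 CPM, and at 0.333 to 1.23 CPM in the other organoid libraries.

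PSC RNA in the organoid libraries could add to the organoid values, so it was estimated. The PSC share of an organoid library was the median, over fibroblast markers with at least 50 CPM in the PSC library of the same culture, of the organoid level divided by the PSC level. It was 0.0214 ± 0.0173% in organoids grown with KO PSCs (n = 7) and 0.0761 ± 0.0575% in organoids grown with WT PSCs (SD, n = 4). The share was below that of the Rosa co-culture in 7 of 7 libraries. The share of a PSC gene's level that this carry-over would give was then set against the measured organoid level.

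For Saa3 the carry-over was as large as the measurement. Its median was 172% of the measured level over the 10 organoid libraries with Saa3, with a range of 25.3% to 589%, and the measured level exceeded the carry-over in 4 of the 10, and in 0 of the 10 with the upper quartile over markers in place of the median. In library 2, the highest for Saa3, the carry-over was 11.8 CPM and the measured level 11.5 CPM. By this measure, organoid Saa3 and Saa3 from PSC RNA cannot be told apart. Serping1, at 4 counts or fewer, had a median carry-over of 34.2% in the 6 libraries where it was seen, and of 78.8% with the upper quartile.

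The other organoid levels were mostly larger than the carry-over. Cfb had a median carry-over of 0.0107% of its measured level and a maximum of 0.516%. C4bp had a median of 0%. Lcn2 had a median of 1.06%, C3 of 3.06%, C4b of 3.78% and C1ra of 3.97%. The T69A organoids were the exception. In library 4 (T69A with B4) the carry-over reached 160% of the measured C3, 95.7% of the measured C4b and 44.2% of the measured Lcn2, and in library 2 (T69A with Rosa) 68.1% of C3, 55.4% of C4b and 34.8% of Lcn2. In T12-LOH organoids it was 0.545% to 2.5% of the measured C3. In the other direction, organoid RNA would give 0.205 CPM of C4bp in PSC library 19, where 0.0434 CPM was measured, and 0.0991 CPM in PSC library 17, where 0.0858 CPM was measured.

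**Figure D2:**
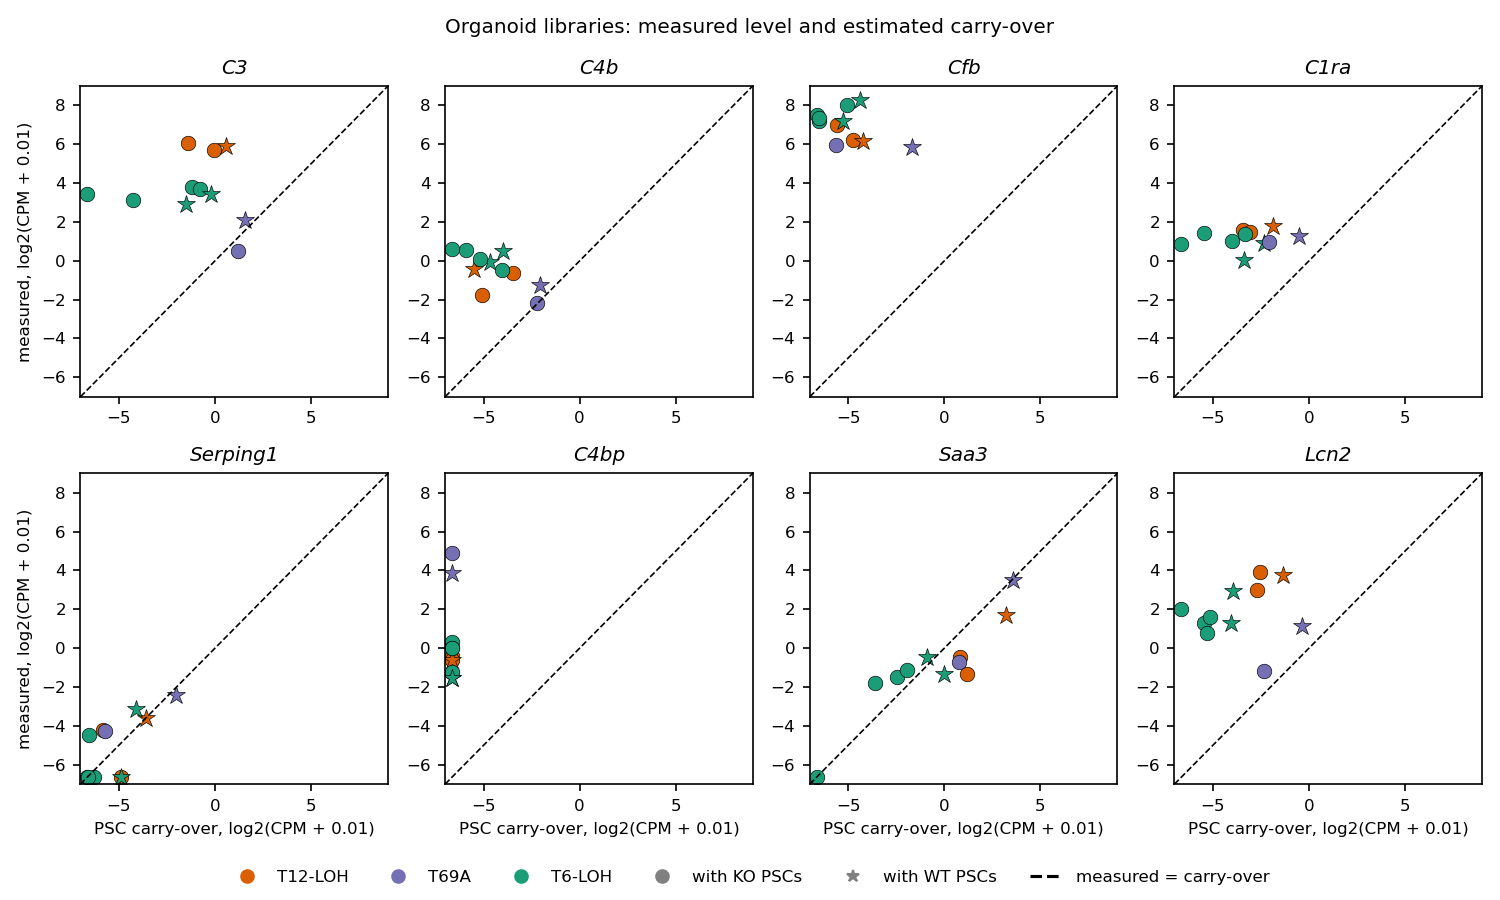
Measured level in each organoid library (vertical axis) against the level that PSC carry-over would give (horizontal axis), both as log2(CPM + 0.01); circles are organoids grown with KO PSCs, stars those grown with WT PSCs, and the dashed line marks equal values. Saa3 points lie around the line, with a median carry-over of 172% of the measured level, while Cfb points lie far above it.

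The study asked how loss of Egfr in the PSCs changed both fractions. In PSCs, no member passed the threshold in the comparison of KO with WT cells, which kept the co-culture as a block (0 of 7 tested, edgeR; 0.0949% of all 14756 genes were called). C4bp was too low to test. At an unadjusted p under 0.05 there was 1 member, Saa3, and DESeq2 called 0 members. Saa3 had 604, 2406.3 and 11224.6 CPM (lowest, median, highest) in KO PSCs, against 1392.5, 3252.3, 7595.8 and 11489.2 CPM in WT PSCs. Each KO library was below its own Rosa library, by 0.03 to 2.43 on the log2 scale, in 8 of 8 cases, but the ranges of the groups overlapped because the co-cultures differed far more. The fitted log2 difference was -0.82 (SE 0.31, edgeR adjusted p = 0.309).

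The classical-pathway genes did not pass the threshold either. C4b was higher than in the Rosa library in 7 of 8 KO libraries, with differences of -0.56 to 4.37, and averaged 203 ± 106 CPM in KO PSCs (n = 8) and 101 ± 60.5 CPM in WT PSCs (SD, n = 4). Its log2 difference was 1.07 (SE 0.56, edgeR adjusted p = 0.443). The largest of these differences came from T12-LOH, where Rosa library 23 was the low one: libraries 24 and 25 had 97.7 and 316 CPM, against 14.8 CPM. C1ra averaged 352 ± 82.1 CPM in KO PSCs and 385 ± 90.9 CPM in WT PSCs, a log2 difference of -0.16 (SE 0.15, edgeR adjusted p = 0.644).

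C3 averaged 2331.4 ± 1160.6 CPM in KO PSCs and 1793.1 ± 461 CPM in WT PSCs (log2 difference 0.30, SE 0.26, edgeR adjusted p = 0.626). Cfb averaged 53.7 ± 51.5 CPM in KO PSCs and 100 ± 66.6 CPM in WT PSCs (log2 difference -1.11, SE 0.86, edgeR adjusted p = 0.587). Serping1 averaged 49.8 ± 61.8 CPM in KO PSCs and 112 ± 31.9 CPM in WT PSCs (log2 difference -2.18, SE 1.17, edgeR adjusted p = 0.449). Lcn2 averaged 381 ± 300 CPM in KO PSCs and 319 ± 187 CPM in WT PSCs (log2 difference -0.04, SE 0.33, edgeR adjusted p = 0.971). The ranges of all these genes overlapped between KO and WT PSCs.

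The KO clones differed from each other. Serping1, the C1 inhibitor, had 116, 58.5 and 169 CPM in A3 cells (with T12-LOH, T6-LOH and T69A), 29.3, 4.26 and 17.6 CPM in B4 cells, and 90.8, 81.4 and 151 CPM in PSC4 Rosa cells. B4 was below A3 and Rosa with every organoid, while A3 overlapped Rosa. In PSC5, clones C5 and D4 had 1.46 and 2.68 CPM, against 125 CPM in their Rosa library. Serping1 was thus below the Rosa library in the clones B4, C5 and D4, and on both sides of it in A3.

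The test of the difference between the clones, over the 9 PSC4 libraries, bears on this. Between B4 and A3, Serping1 was lower (log2 -2.85, SE 0.49, edgeR adjusted p = 0.00591), and so were Saa3 (log2 -1.01, SE 0.30, adjusted p = 0.0345) and Lcn2 (log2 -0.89, SE 0.24, adjusted p = 0.0243), while C3 was higher (log2 0.93, SE 0.15, adjusted p = 0.00215). That was 1 member higher and 3 lower of 7 tested, where 23.8% of all 14446 genes were higher and 24.1% lower, so B4 and A3 differed in about as large a share of all genes. The Serping1 and C3 calls held without any single library. Without libraries 18, 19, 21, 22 or 24 the Saa3 call was lost (adjusted p 0.0604 to 0.112), and without libraries 18, 19, 21 or 22 the Lcn2 call was lost (0.0748 to 0.108). Cfb, at -2.0 (SE 0.68, edgeR adjusted p = 0.0592), was called lower without library 23 (log2 -2.11, edgeR adjusted p = 0.000294). DESeq2 called it lower as well (log2 -2.08, DESeq2 adjusted p = 0.00982). C4b (log2 0.92, SE 0.67, adjusted p = 0.311) and C1ra (log2 -0.11, SE 0.13, adjusted p = 0.542) did not pass.

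Against Rosa, B4 cells had higher C3 and lower Saa3, Serping1 and Cfb: 1 member higher and 3 lower of 7, where 24.7% of genes were higher and 24.6% lower. C3 had 3846.4, 1451.3 and 4307.1 CPM in B4 cells (with T12-LOH, T6-LOH and T69A), against 1838.5, 1160.7 and 1907.1 CPM in Rosa cells, higher with each organoid by 0.32 to 1.18 on the log2 scale. The log2 difference was 0.84 (SE 0.15, edgeR adjusted p = 0.00318). Saa3 had 6986.4, 604 and 3226.1 CPM in B4 cells, against 11489.2, 3252.3 and 7595.8 CPM in Rosa cells, and the log2 difference was -1.49 (SE 0.31, edgeR adjusted p = 0.00887). Serping1 differed by -2.88 (SE 0.49, edgeR adjusted p = 0.00567). Cfb had 43.1, 3.85 and 19.8 CPM in B4 cells, against 53.9, 53.8 and 195 CPM in Rosa cells, and the difference was -2.57 (SE 0.72, edgeR adjusted p = 0.0325). The Cfb call was lost without any one of libraries 18, 19, 21, 22, 24, 17 and 20 (adjusted p 0.06 to 0.133). C4b was at 2.00 (SE 0.72, edgeR adjusted p = 0.0682), and Lcn2 at -0.20 (SE 0.24, adjusted p = 0.519), which was called lower without library 25 (log2 -0.57, adjusted p = 0.0014). C1ra was at -0.01 (SE 0.13, adjusted p = 0.941).

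A3 cells differed from Rosa cells in 0 of 7 members (edgeR; 7.34% of all genes were called, 1 member was under an unadjusted p of 0.05 and DESeq2 called 1). That member was Lcn2, with 708, 277 and 817 CPM in A3 cells (with T12-LOH, T6-LOH and T69A), against 475, 170 and 488 CPM in Rosa cells. Lcn2 was higher in A3 with each organoid, by 0.58 to 0.74 on the log2 scale, and the fitted difference was 0.69 (SE 0.23, edgeR adjusted p = 0.153). Saa3 was at -0.48 (SE 0.30, edgeR adjusted p = 0.41), C4b at 1.08 (SE 0.68), Cfb at -0.56 (SE 0.66), C3 at -0.09 (SE 0.15), C1ra at 0.09 (SE 0.13) and Serping1 at -0.03 (SE 0.44). Without library 25 the Lcn2 difference passed (edgeR adjusted p = 0.00284), and without library 23 Cfb was called lower (log2 -1.27, adjusted p = 0.0188). A3 and B4 were set against the same Rosa libraries.

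In PSC5, each clone had 1 library. Cfb had 110 CPM in C5 and 3.38 CPM in D4, against 97.5 CPM in their Rosa library, and Lcn2 had 87.2 CPM in C5 and 61.3 CPM in D4, against 145 CPM. The difference of the KO effect between PSC5 and PSC4 passed the threshold for 0 of 7 members and for 0 of 15336 genes (0%) with edgeR, while 2 members, Serping1 and C1ra, were under an unadjusted p of 0.05 and DESeq2 called 0. Serping1 differed by -5.11 (SE 1.81, edgeR adjusted p = 0.981), C1ra by -0.73 (SE 0.24, adjusted p = 0.981) and C4b by -1.66 (SE 1.11). The difference was -1.27 (SE 0.66) for Lcn2, -0.51 (SE 0.60) for C3, 0.46 (SE 2.11) for Cfb and 0.27 (SE 0.77) for Saa3.

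**Figure D3:**
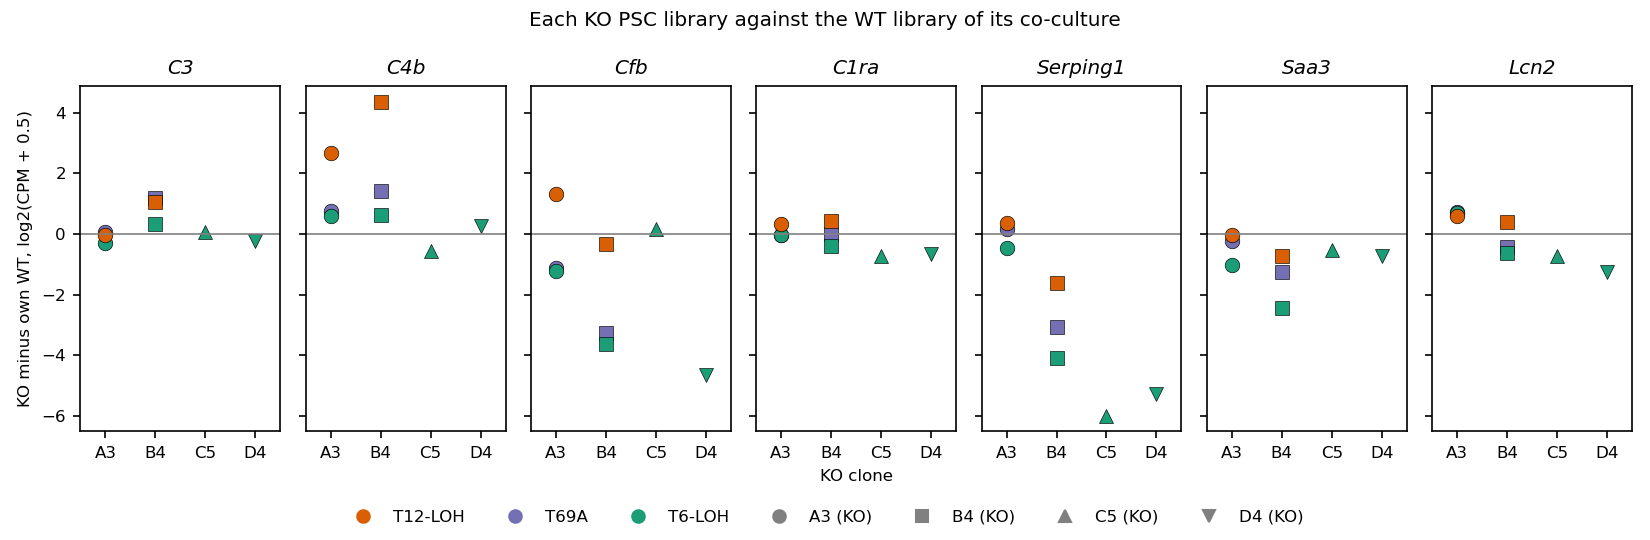
Difference of each KO PSC library from the Rosa library of the same co-culture, on the log2(CPM + 0.5) scale, by clone (A3, B4, C5, D4) for the 7 genes above the floor. For Serping1, A3 lies between -0.47 and 0.35, B4 between -4.11 and -1.61, and C5 at -6.0.

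Levels in the PSCs also differed with the organoid line they were grown with. C3, Saa3 and Lcn2 were higher in PSC4 cells from co-cultures with T12-LOH and with T69A than with T6-LOH, and C1ra was too. The regions of 250 bases before the start of 3 of these genes are shown because the genes moved together here. They come from RefSeq, build GRCm38.p6, and lie on the minus strand at chr17:57228137-57228386 (C3), chr7:46715677-46715926 (Saa3) and chr2:32387740-32387989 (Lcn2). They are written 5′ to 3′ in the direction of the gene, and capitals mark a match to the C/EBP motif TTGCNNAA on either strand.

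C3: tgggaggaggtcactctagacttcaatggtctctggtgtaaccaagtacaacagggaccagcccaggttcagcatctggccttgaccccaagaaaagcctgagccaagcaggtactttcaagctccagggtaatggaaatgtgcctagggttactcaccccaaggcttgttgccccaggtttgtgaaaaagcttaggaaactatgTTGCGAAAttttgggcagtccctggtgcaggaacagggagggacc
Saa3: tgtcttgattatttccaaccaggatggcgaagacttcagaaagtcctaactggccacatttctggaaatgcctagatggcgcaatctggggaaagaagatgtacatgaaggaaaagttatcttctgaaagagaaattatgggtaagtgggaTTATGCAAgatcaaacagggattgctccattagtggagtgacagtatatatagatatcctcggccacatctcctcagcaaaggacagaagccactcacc
Lcn2: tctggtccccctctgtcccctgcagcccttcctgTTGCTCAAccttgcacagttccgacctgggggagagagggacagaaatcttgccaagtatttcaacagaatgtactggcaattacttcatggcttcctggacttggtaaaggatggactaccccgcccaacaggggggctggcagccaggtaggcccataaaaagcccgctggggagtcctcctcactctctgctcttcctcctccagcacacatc

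The motif matched at 45 to 38 bases before the start in C3, at 99 to 92 in Saa3 (on the strand opposite to the gene) and at 216 to 209 in Lcn2, and 9.56% of 32851 RefSeq promoters of this length hold it. The motifs were chosen after the sequences had been read. The STAT motif TTCNNNGAA (7.02% of promoters) and an NF-kappaB motif (4.65%) had no match in these windows. The table gave such a region also for C1ra and C4bp, which held none of the 3 motifs. C4b, Cfb and Serping1 are named only. A match is a description of the letters and no evidence of binding.

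Among PSC4 cells grown with T12-LOH rather than T6-LOH, Saa3 had 11224.6 CPM in A3, 6986.4 CPM in B4 and 11489.2 CPM in Rosa cells, against 1586.6, 604 and 3252.3 CPM. All values with T12-LOH were above all values with T6-LOH. The log2 difference was 2.73 (SE 0.32, edgeR adjusted p = 0.00446), the largest among the 8 genes in this comparison. Lcn2 had 708, 629 and 475 CPM with T12-LOH and 277, 111 and 170 CPM with T6-LOH, a log2 difference of 1.83 (SE 0.24, edgeR adjusted p = 0.00694). C3 had 1805.0, 3846.4 and 1838.5 CPM with T12-LOH and 952, 1451.3 and 1160.7 CPM with T6-LOH, a difference of 1.01 (SE 0.15, edgeR adjusted p = 0.00594). In each PSC line Saa3, Lcn2 and C3 were higher with T12-LOH.

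C1ra averaged 388 ± 56.8 CPM with T12-LOH and 269 ± 39.5 CPM with T6-LOH (SD, n = 3 each; log2 difference 0.55, SE 0.14, edgeR adjusted p = 0.0327). In all, 4 of 7 members were higher and 0 lower, where 8.3% of genes were higher and 9.03% lower. The calls of C3, Lcn2 and Saa3 held in all 9 fits that left out a library. C1ra was lost without any one of libraries 18, 19, 21, 22, 24, 25 and 17 (adjusted p 0.0518 to 0.125). Cfb, at 77.7 ± 50.9 CPM with T12-LOH and 26.8 ± 25.2 CPM with T6-LOH, did not pass (log2 2.14, SE 0.71, edgeR adjusted p = 0.105). It was called higher without library 23 (log2 2.92, edgeR adjusted p = 0.00158) and by DESeq2 (log2 2.26, DESeq2 adjusted p = 0.0116). Neither Serping1 (log2 1.21, SE 0.47, edgeR adjusted p = 0.148) nor C4b (log2 -0.55, SE 0.71, edgeR adjusted p = 0.649) passed. Of 20 fibroblast markers, 3 were higher and 13 lower with T12-LOH, and their sum was 12617.9 to 14538.8 CPM with T12-LOH and 20052.3 to 22696.1 CPM with T6-LOH. The part of these differences in the result was not tested.

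With T69A rather than T6-LOH, the same 4 genes were called higher and none lower, where 2.71% of genes were higher and 1.4% lower. Saa3 averaged 5754.6 ± 2264.5 CPM with T69A and 1814.2 ± 1338.9 CPM with T6-LOH (log2 1.83, SE 0.31, edgeR adjusted p = 0.0391). Lcn2 averaged 556 ± 235 CPM with T69A and 186 ± 84.3 CPM with T6-LOH (log2 1.58, SE 0.24, edgeR adjusted p = 0.0359). C3 averaged 2735.3 ± 1361.9 CPM with T69A and 1188.1 ± 251 CPM with T6-LOH (log2 1.09, SE 0.15, edgeR adjusted p = 0.0229). C1ra averaged 431 ± 2.71 CPM with T69A and 269 ± 39.5 CPM with T6-LOH (log2 0.67, SE 0.13, edgeR adjusted p = 0.0436). Cfb (log2 1.95, SE 0.68), Serping1 (log2 1.32, SE 0.46) and C4b (log2 0.76, SE 0.66) did not pass.

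The T69A calls depended on single libraries. C3 was lost without libraries 18, 19, 21 or 17 (adjusted p 0.0777 to 0.118), Lcn2 without 18, 19, 21, 22, 17 or 20, and Saa3 without 18, 19, 21, 22, 24 or 17 (0.0715 to 0.158). C1ra was kept in 2 of 9 fits. Without library 25, Serping1 was called higher as well, and without library 23, so was Cfb. Summed epithelial markers were 140 to 183 CPM in PSC libraries from T69A co-cultures, against 51.4 to 81.1 CPM in PSC4 libraries from T6-LOH co-cultures. Of 18 epithelial markers tested, 8 were higher. The organoid levels of Saa3, Lcn2 and C3 lay far below their PSC levels, and the part of organoid RNA in the result was not tested.

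**Figure D4:**
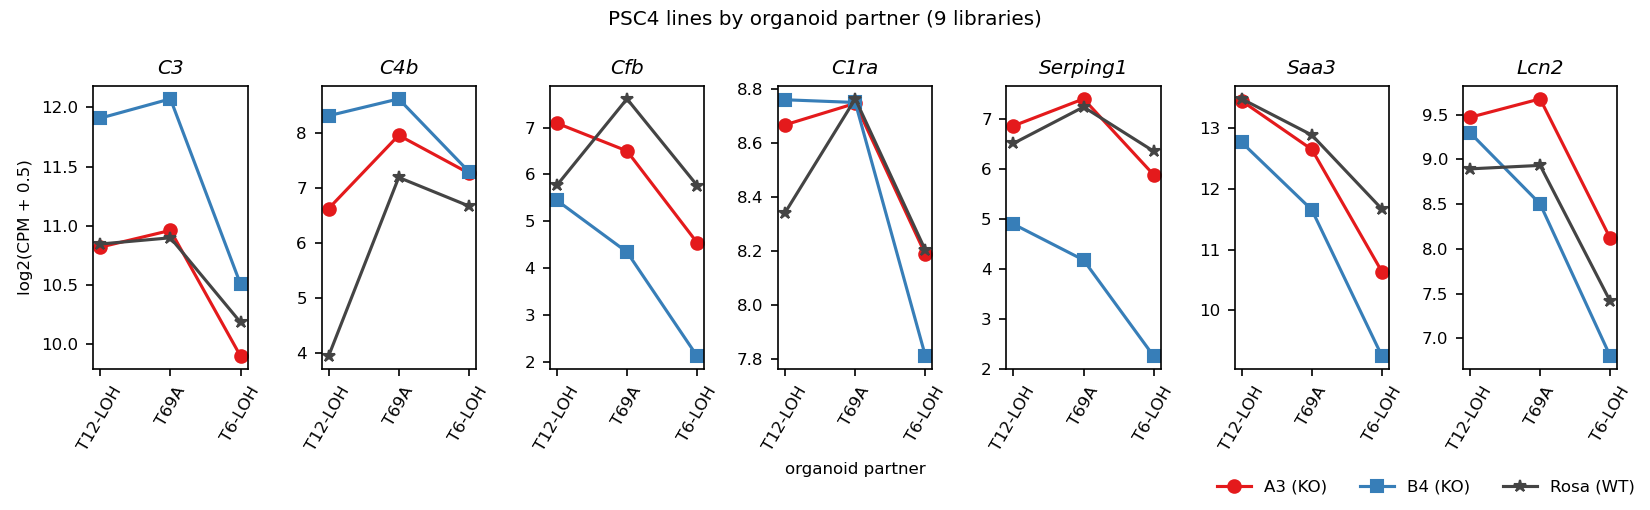
Level of 7 genes in the 9 PSC4 libraries, as log2(CPM + 0.5), by organoid partner (T12-LOH, T69A, T6-LOH), with a line for each PSC line (A3, B4, Rosa); each panel has its own axis. Saa3, Lcn2 and C3 lie higher with T12-LOH than with T6-LOH in each of the 3 PSC lines.

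Between parent lines grown with T6-LOH, no member passed the threshold (0 of 7, edgeR; 0.014% of all 14236 genes were called). At an unadjusted p under 0.05 there was 1 member, C3, and DESeq2 called it. C3 had 2366.7 CPM in C5, 1930.9 CPM in D4 and 2266.2 CPM in Rosa cells of PSC5, against 952, 1451.3 and 1160.7 CPM in A3, B4 and Rosa cells of PSC4. All PSC5 values were higher, but the log2 difference of 0.88 (SE 0.19) had an edgeR adjusted p of 0.256. Lcn2 had 87.2, 61.3 and 145 CPM in the PSC5 lines and 277, 111 and 170 CPM in the PSC4 lines, with overlap (log2 -1.01, SE 0.43, edgeR adjusted p = 0.411). C1ra averaged 362 CPM in PSC5 and 269 CPM in PSC4 lines (log2 0.39, SE 0.17, n = 3 each, edgeR adjusted p = 0.413), and Saa3 1066.7 CPM and 1814.2 CPM (log2 -0.60, SE 0.40). Serping1 was at -2.51 (SE 1.52), Cfb at 1.68 (SE 1.23) and C4b at 0.01 (SE 0.26). Parent line and KO clones are not separable here, since each clone belongs to 1 parent.

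Several of the genes differed between the organoid lines. In the 8 organoid libraries grown with PSC4 lines, C3 had 67.2, 51.8 and 59.7 CPM in T12-LOH (with A3, B4 and Rosa), against 8.61, 10.8 and 7.71 CPM in T6-LOH, with no overlap. The log2 difference was 2.71 (SE 0.33, edgeR adjusted p = 0.00232). Lcn2 had 7.9, 15 and 13.4 CPM in T12-LOH and 2.43, 3.96 and 2.48 CPM in T6-LOH, a log2 difference of 2.00 (SE 0.47, edgeR adjusted p = 0.0171). Cfb went the other way, with 75.3, 127 and 71.2 CPM in T12-LOH and 147, 181 and 148 CPM in T6-LOH, a log2 difference of -0.83 (SE 0.14, edgeR adjusted p = 0.00241).

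In all, 4 members were higher in T12-LOH (C3, Lcn2, Saa3 and C1ra) and 2 were lower (Cfb and C4b), where 31.2% of all 14541 genes were higher and 30.8% lower. C3 and Cfb held in all 8 fits that left out a library. C1ra (log2 0.79, SE 0.31, edgeR adjusted p = 0.0481) was kept in 2 of 8, Lcn2 was lost without libraries 7, 11, 12, 6 or 10, and Saa3 was lost without libraries 8, 6 or 10. C4b, at 0.552 ± 0.231 CPM in T12-LOH (n = 3), had a log2 difference of -1.29 (SE 0.44, edgeR adjusted p = 0.0276) and was lost without libraries 7, 8, 11 or 12. For Saa3 (log2 2.63, SE 0.87, edgeR adjusted p = 0.0395) the carry-over from PSCs was 241% to 589% of the measured level in the T12-LOH organoids. Of 12 fibroblast markers tested, 5 were higher and 0 lower in T12-LOH, with a median of 1.00, and the sum of the 20 markers was 7.09 to 13.8 CPM in T12-LOH and 2.72 to 7.22 CPM in T6-LOH. Their part in the result was not tested. C4bp was at -0.25 (SE 0.31, edgeR adjusted p = 0.522).

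T69A organoids carried C4bp. Library 4 (with B4) had 30.2 CPM and library 2 (with Rosa) 14.5 CPM, against 1.23, 0.989 and 0.333 CPM in T6-LOH with A3, B4 and Rosa cells, a log2 difference of 4.94 (SE 0.29, edgeR adjusted p = 1.69e-06). Both T69A libraries were above all others, and the carry-over of C4bp from PSCs was at most 0.000922% of the measured level. Cfb was lower in T69A, with 63 and 58.7 CPM, against 147, 181 and 148 CPM in T6-LOH (log2 -1.46, SE 0.17, edgeR adjusted p = 0.000717). Of the members, 2 were higher (C4bp and Saa3) and 2 lower (Cfb and C4b), where 25.3% of genes were higher and 26% lower. C4b (log2 -2.18, SE 0.59, edgeR adjusted p = 0.0111) was lost without library 4 or 8, and Saa3 (log2 4.01, SE 0.92, edgeR adjusted p = 0.0129) without library 2 or 6. The carry-over of Saa3 from PSCs was 282% of the measured level in library 4 and 103% in library 2. Of 12 fibroblast markers tested, 8 were higher and 0 lower in T69A, with a median of 2.50, and the sum of the 20 markers was 9.91 to 35.1 CPM in T69A and 2.72 to 7.22 CPM in T6-LOH. Their part in the result was not tested. C1ra was at 0.42 (SE 0.38, edgeR adjusted p = 0.38). C3 had 1.41 and 4.35 CPM in T69A, against 8.61, 10.8 and 7.71 CPM in T6-LOH, and did not pass with edgeR (log2 -1.64, SE 0.49, edgeR adjusted p = 0.0521). DESeq2 called C3 lower (log2 -1.75, DESeq2 adjusted p = 0.00619). Its log2 difference was -0.96 without library 4 and -2.68 without library 2, with the other T69A library alone. Without library 2, the log2 difference of Lcn2 was -3.15.

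In organoids grown with KO PSCs rather than WT PSCs, C4bp was higher and Saa3 lower, 1 member in each direction of 7 tested, where 3.82% of all 14750 genes were higher and 5.34% lower. C4bp was above the Rosa co-culture in 6 of 7 libraries, with differences of -0.01 to 1.06 on the log2 scale (fitted 0.98, SE 0.26, edgeR adjusted p = 0.0369). Saa3 was below it in 7 of 7 libraries (fitted -2.36, SE 0.59, edgeR adjusted p = 0.0414). Saa3 had 0.598, 0.387, 0.729, 0.282, 0, 0.349 and 0.448 CPM in libraries 4, 11, 12, 7, 8, 15 and 16 grown with KO PSCs, against 11.5, 3.22, 0.393 and 0.713 CPM in libraries 2, 10, 6 and 14 grown with WT PSCs. Library 2 and library 10 are the high ones, and the groups otherwise overlap.

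Both calls depended on single libraries. The C4bp call was lost in 7 of 11 fits that left out a library (libraries 4, 7, 11, 16, 2, 6 and 14; adjusted p 0.0526 to 0.161), and the Saa3 call in 8 of 11 (libraries 4, 11, 12, 15, 16, 2, 10 and 14; 0.0543 to 0.141). Both were lost without the T69A co-cultures. Markers of PSCs moved with Saa3. Of 13 fibroblast markers tested, 6 were lower in organoids grown with KO PSCs and 0 higher, among them Col1a1 (log2 -1.45) and Dcn (log2 -4.15), with a median of -1.19, and the sum of the 20 markers was 2.72 to 9.91 CPM with KO PSCs and 7.22 to 35.1 CPM with WT PSCs. Their part in the result was not tested. The other members were within the spread: C3 had a log2 difference of 0.00 (SE 0.22), Cfb of 0.01 (SE 0.25), C1ra of 0.19 (SE 0.23), C4b of -0.31 (SE 0.32) and Lcn2 of -0.77 (SE 0.44, edgeR adjusted p = 0.303).

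Other genes of the pathway were counted from 6 lists, beside the 40.4% of all genes higher and 40.2% lower in PSCs. Of 18 listed classical and lectin pathway genes, 9 were tested, and 7 of these were higher in PSCs and 1 lower (edgeR adjusted p under 0.05). Their median log2 difference was 8.08, against -0.03 over all tested genes. The C1q genes C1qa, C1qb and C1qc were at 0 in all PSC libraries, and so were Mbl1, Mbl2 and Fcnb. C1s1, the partner protease of C1ra, had 419 ± 93.8 CPM in KO PSCs and 441 ± 60.2 CPM in WT PSCs, against 0.199 ± 0.0536 and 0.487 ± 0.322 CPM in organoids grown with KO and WT PSCs (log2 10.47, SE 0.14, edgeR adjusted p = 1.4e-18). The exception was Fcna, a ficolin that recognises sugars, at -5.23 (SE 0.36). C1rb, C1s2, Masp1 and Colec12 averaged at most 0.194 CPM in the organoid groups, and Fcna at most 0.0545 CPM in the PSC groups. The filter on low counts let these in through the other fraction, so their direction was fixed in advance. The count of 7 and the median of 8.08 rest partly on them. Of 9 listed alternative and terminal pathway genes, 3 were tested (Cfp, C8g and Hc), and all 3 were higher in PSCs. C8g and Hc were low there, at means of 0.416 to 0.696 CPM and 0.495 to 0.641 CPM. Hc averaged 0.673 and 0.478 CPM in organoids grown with KO and WT PSCs. Cfd, C6, C7, C8a, C8b and C9 averaged at most 0.00914 CPM in PSCs. Of 12 tested regulators, 3 were higher in PSCs and 7 lower, with a median of -2.93. Cd55, a membrane inhibitor of the C3 convertase, was at -7.63 (SE 0.18), and Clu, the secreted chaperone clusterin, had 16.5 to 420 CPM in PSCs and 4001.0 to 11819.2 CPM in organoids (log2 -6.30, SE 0.47, edgeR adjusted p = 2.05e-09). Of 6 tested receptors, 2 were higher and 2 lower. In these 2 lists, Cd59a, Csmd1 and Cd93 averaged at most 0.0475 CPM in organoids, and Cfi, Cpn1 and Itgam at most 0.0809 CPM in PSCs. Their direction was fixed in advance in the same way.

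Of 28 listed acute-phase genes, 17 were tested, and of these 16 were higher in PSCs and 0 lower, with a median of 6.54. The others were too low to test. Saa1 and Orm1 were at 0 in all organoid libraries. Saa2, Saa4, Serpina3m, Serpina3g, Ptx3 and Itih4 averaged at most 0.0642 CPM in organoids grown with KO or WT PSCs. The count filter let all of these in through PSC libraries, so their direction was fixed in advance. The count of 16 and the median of 6.54 rest partly on them. Haptoglobin (Hp), which binds free haemoglobin, had 137 to 6912.2 CPM in PSCs and 0.129 to 2.72 CPM in organoids (log2 11.12, SE 0.34, edgeR adjusted p = 1.3e-14). Of 24 tested cytokines and regulators known to act upstream of acute-phase genes, 19 were higher and 4 lower in PSCs. Il6 was among the higher (log2 8.47, SE 0.33), as were the cytokine receptor genes Osmr (log2 4.89, SE 0.13) and Il6st (log2 3.23, SE 0.09). The cytokines Il1a (log2 -5.68, SE 0.29) and Tnf (log2 -5.48, SE 0.19) were lower in PSCs.

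Between KO and WT PSCs 0 of these genes passed with edgeR in any of the 6 lists. Among them were the NF-kappaB subunit gene Nfkb1 (log2 -0.56, SE 0.10, adjusted p = 0.0849) and Cd55 (log2 -2.39, SE 0.52, adjusted p = 0.141). Cd55 was low in all PSCs, with 0 to 0.177 CPM in KO PSCs and 0.256 to 1.03 CPM in WT PSCs.

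In B4 against Rosa cells, acute-phase genes had 3 higher and 4 lower of 16 tested, regulators 3 and 3 of 7, and upstream genes 4 and 9 of 24, where 24.7% of all genes were higher and 24.6% lower. The transcription factor Cebpa was higher (log2 2.58, SE 0.26, edgeR adjusted p = 0.000424), and the NF-kappaB subunit genes Nfkb2 (log2 -0.63, SE 0.07, adjusted p = 0.000337) and Nfkb1 (log2 -0.68, SE 0.09, adjusted p = 0.000732) were lower. In A3 against Rosa cells, acute-phase genes had 0 higher and 1 lower of 16, regulators 1 and 2 of 7, and upstream genes 0 and 4 of 24, where 7.34% of all genes were called in either direction. The lower upstream genes in A3 were Il6 (log2 -1.58, SE 0.32, edgeR adjusted p = 0.0469), Nfkb1 (log2 -0.57, SE 0.09), Nfkb2 (log2 -0.37, SE 0.07) and Rela (log2 -0.33, SE 0.08). These were lower in B4 too, with Il6 at -0.98 (SE 0.31, edgeR adjusted p = 0.0481) and Rela at -0.32 (SE 0.08). Both clones were set against the same Rosa libraries.

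With T12-LOH rather than T6-LOH, PSC4 cells had 6 acute-phase genes higher and 0 lower of 16 tested, with a median of 0.34 against 0.01 over all genes, of which 8.3% were higher and 9.03% lower. Hp averaged 5218.2 ± 2161.2 CPM with T12-LOH and 951 ± 44.4 CPM with T6-LOH (SD, n = 3 each; log2 2.41, SE 0.28, edgeR adjusted p = 0.00381). Saa1, another serum amyloid A gene, averaged 7.44 ± 1.1 CPM with T12-LOH and 0.602 ± 0.304 CPM with T6-LOH (log2 3.77, SE 0.36, adjusted p = 0.00112), and it was at 0 in all 11 organoid libraries. The copper oxidase Cp was higher as well (log2 1.73, SE 0.16, adjusted p = 0.00139). Upstream, 5 genes were higher and 2 lower of 24, with Il1a (log2 3.41, SE 0.31, adjusted p = 0.00112) and Il6 (log2 1.60, SE 0.32, adjusted p = 0.0265) among the higher. Saa1 and Saa3 share sequence, so reads may have been split between them. With T69A, 3 of 16 acute-phase genes were higher and 0 lower, where 2.71% of all genes were higher and 1.4% lower, and Cp was at 1.09 (SE 0.15, adjusted p = 0.0275).

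In organoids, T12-LOH against T6-LOH had 0 regulators higher and 8 lower of 10 tested, and T69A against T6-LOH had 0 and 7 of 10. Of all genes, 31.2% were higher and 30.8% lower in T12-LOH, and 25.3% higher and 26% lower in T69A. Cd55 was among them, with 39.9, 38.6 and 36.5 CPM in T12-LOH (with A3, B4 and Rosa), 22.8 and 36.1 CPM in T69A (with B4 and Rosa), and 57.2, 57.2 and 76.5 CPM in T6-LOH. The log2 differences were -0.71 (SE 0.14, edgeR adjusted p = 0.00363) for T12-LOH and -1.15 (SE 0.17, adjusted p = 0.00134) for T69A. In T12-LOH organoids 13 upstream genes were higher and 5 lower of 24, with Lif at 1.61 (SE 0.08) and Tnf at 3.65 (SE 0.17). In organoids grown with KO PSCs, 1 upstream gene was higher (Il1r1, log2 0.27) and 2 were lower (Lif, log2 -0.55, edgeR adjusted p = 0.0265; Relb, log2 -0.42, adjusted p = 0.0144), and Fcna was lower (log2 -1.03, adjusted p = 0.043).

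**Figure D5:**
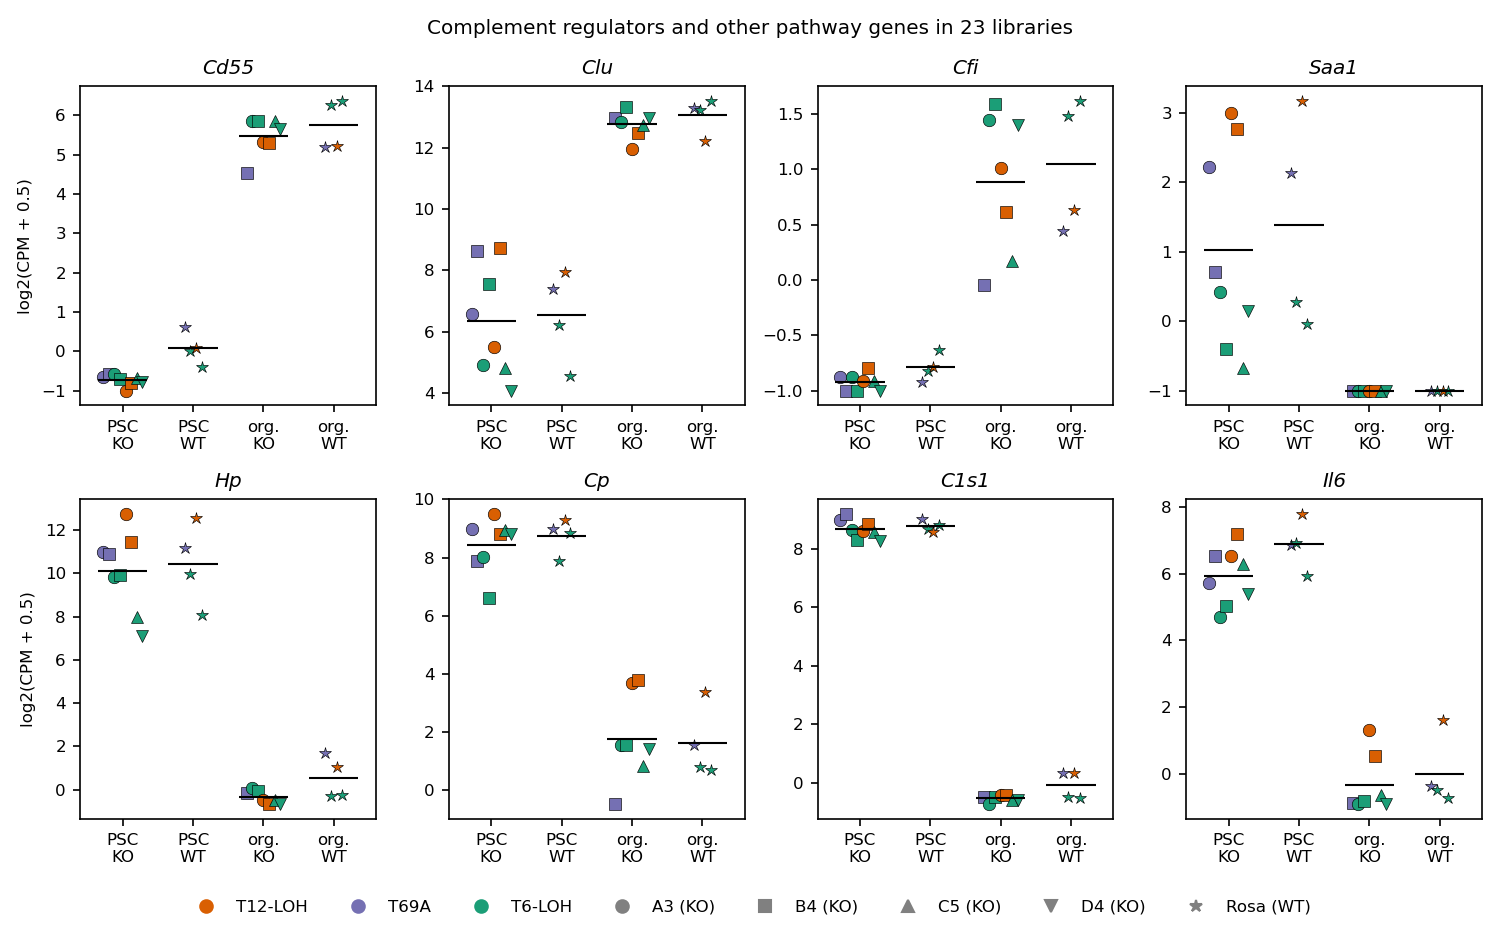
Level of Cd55, Clu, Cfi, Saa1, Hp, Cp, C1s1 and Il6 in each library, on a log2(CPM + 0.5) axis, by fraction and PSC genotype; colours give the organoid line, shapes the PSC line and bars the group mean. Cd55 and Clu lie higher in organoids and C1s1, Hp, Cp and Il6 in PSCs, while Saa1 is at 0 in all 11 organoid libraries.

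Genes most like each member over the 12 PSC libraries were sought among 11222 protein-coding candidates, by the mean absolute difference of centred log2(CPM + 0.5). For Saa3 they were Saa1 (0.38), Ism1 (0.39) and Mmp13 (0.40), against a mean absolute deviation of Saa3 itself of 1.3. For Lcn2 they were Tgm1 (0.47), Saa3 (0.52) and Rac3 (0.52), and for C4b Smpdl3a (0.37), Dtx4 (0.37) and Serpina3n (0.39), the last an acute-phase serine protease inhibitor. For Serping1 the nearest gene was Cfb (0.98), which is a loose match, since Serping1 itself deviated by 1.92. C3 was nearest to Agbl5 (0.23), C1ra to Apln (0.14) and Cfb to Ifi207 (0.78). In the 11 organoid libraries, among 11025 candidates, C3 was nearest to Mcpt8 (0.21), Lcn2 to Tns1 (0.27) and Cfb to Muc20 (0.20).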

How the data were processed

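RNA of sorted cells was sequenced in 23 libraries. The deposited tables give estimated counts and TPM per transcript, made by the authors with Salmon 1.9.0 on GRCm39 (mm39), per the submitters' processing notes. Transcripts were named by ID without version from GENCODE M21, for names only (115973 of 117135 transcripts matched, 35523 genes). The remaining transcripts held 0.364% to 0.443% of the reads of a library. The 8 genes and the lists of pathway genes and markers were chosen with earlier results of these data known.

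Estimated counts were summed per gene, rounded and tested with edgeR 4.0.16 (R 4.3.3; TMM scaling, filterByExpr, robust quasi-likelihood test), with Benjamini-Hochberg adjustment over all tested genes and a threshold of 0.05. KO and WT were compared with the co-culture as a block, PSC4 lines and organoid partners in 1 fit with terms for both, and the fractions over all libraries. In all 12 comparisons were made. DESeq2 1.42.0, fits without the filter on low counts or without the block, and fits without each library were the alternatives. A fit of the fractions paired by culture, from the titles, was added after seeing the data. Within groups, 61 pairs of libraries were compared by chi-square over genes with at least 10 counts. Divided by its degrees of freedom, chi-square was at least 10.2, so no pair was counted as 1 library. Differences from a single Rosa library are of log2(CPM + 0.5), which understates changes of low genes. All 8 genes are named in each comparison, C4bp and Serping1 only where testable. Genes named from a list for a difference are among its 4 per direction with the smallest p past the threshold. Where none passed, they are among its 2 with the smallest p, and not all of these are named. Il6 in B4 against Rosa cells is named besides, and further list genes are named for their level. The scripts were tested on simulated data. Text tables and figures used Python 3.11.15, pandas 2.3.3 and matplotlib 3.10.9.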

Additional observations from a re-analysis of the deposited data

Results flagged for a closer look

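In groups of 4 to 10 libraries, 5 of 32 gene and group combinations had 1 library far from the others by Dixon's criterion, which chance gives in about 1 of 20. C4b had 14.8 CPM in WT PSC library 23, the lowest of its group, where the other 3 had 101 to 145 CPM. C4bp had 0.182 CPM in KO PSC library 18 and 0.0858 CPM in WT PSC library 17, which are 4 and 3 counts. C4bp had 30.2 CPM in library 4 of the organoids grown with KO PSCs and 14.5 CPM in library 2 of the organoids grown with WT PSCs, and these are the only T69A organoid libraries.

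Levels of 4 genes differed between the KO clones B4 and A3 of PSC4, tested in 1 fit over 9 libraries with edgeR. Of all 14446 genes, 23.8% were higher and 24.1% lower in B4. The KO and other differences between the clones cannot be told apart here. The log2 difference of B4 from A3 was 0.93 for C3, -2.85 for Serping1, -1.01 for Saa3 and -0.89 for Lcn2.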

How the results depend on the processing

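No result reversed under any alternative where the main or the alternative fit called it. Values called in neither fit were counted as unchanged, also where their sign flipped. Lcn2 in KO against WT PSCs, for example, ranged from -0.34 to 0.25 on the log2 scale. In organoids grown with KO against WT PSCs, no member was lower without the filter on low counts (0), and 0 were higher and 0 lower without the co-culture block or without the T69A co-cultures. DESeq2 called 1 member higher in A3 against Rosa, 2 in B4 against Rosa and 1 in PSC5 against PSC4 cells, and 1 lower in T12-LOH against T6-LOH organoids. Without the filter, 1 member was lower in B4 against A3, and 2 were higher in T69A against T6-LOH PSCs and in T12-LOH against T6-LOH organoids. With the upper quartile over markers, the median carry-over was 14.6% for C1ra, 8.61% for C3, 6.32% for C4b, 4.2% for Lcn2, 0.0205% for Cfb, 78.8% for Serping1 and 261% for Saa3, whose measured level was above it in 0 of 10 libraries. With the mean of all PSC libraries, it was 0.000827% for C4bp, 7.11% for C4b, 2.46% for Lcn2 and 59% for Serping1. The cause was not tested. Leaving out 1 library gave 0 to 1 members higher and 0 to 1 lower in organoids with KO PSCs and in A3 against Rosa, 1 to 2 lower between fractions, 1 higher and 1 to 4 lower in B4 against A3, 1 higher and 2 to 4 lower in B4 against Rosa, 3 to 5 higher with T12-LOH and 0 to 5 with T69A in PSCs, 1 to 3 higher and 1 to 2 lower in T12-LOH organoids, and 1 to 2 higher and 1 to 4 lower in T69A organoids. Over all genes, KO against WT PSCs had 14 calls with edgeR, 613 with DESeq2, 4 without the block and 23 without the filter. The KO effect in PSC5 against PSC4 had 0 and 89 with DESeq2, T69A against T6-LOH PSCs 594 and 1124, and PSC5 against PSC4 cells 2, 606 with DESeq2 and 47 without the filter. Organoids with KO PSCs had 1351 calls, 0 without the block and 418 without T69A. Of values for single genes and call counts over all genes, 2332 were counted as unchanged. Among values for single genes, 241 lost the call and 19 gained it. The groups share no replicate numbers. Fractions paired by culture (replicate block, 11 pairs, 22 libraries, chosen after seeing the data) gave 6 members higher and 2 lower in PSCs, the added one being Cfb (log2 -1.63, edgeR adjusted p = 0.0345). Counts of 4 or fewer limit Serping1 in organoids and C4bp in PSCs.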
